A study of Mus musculus with 6 samples.

Results

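The AP-1 and ATF leucine-zipper factors examined here are 9 genes, Fos, Fosb, Fosl1, Fosl2, Jun, Junb, Jund, Atf3 and Batf, chosen by name and represented by every probe set that the platform annotation assigns to one of them. They took 13 of 12422 probe sets, and 10 of these, standing for 8 genes, were above the signal floor of 98.0 on at least 1 array. Fosl2 was below it on all 6 arrays. The arrays held RNA of mouse peritoneal exudate cells (PEC, or peritoneal macrophages, in the labels), with C57BL/6 as the strain label of every sample. Cells lacking NF-IL6 (KO), cells of the knock-in line labelled NF-IL6 KI(LAP) (KI) and wild-type cells (WT) were each measured after lipopolysaccharide (LPS) with interferon-γ, here called stimulated, and untreated. NF-IL6 is C/EBPβ, itself a leucine-zipper factor, and its activating form is named LAP. A stimulation time of 12 h is labelled for the KO and KI cells only, with none for WT, and the labels do not say whether an array stood for 1 mouse or a pool. With 1 array in each of the 6 groups, no group had a replicate, and the spread between animals or cultures is unknown for every value below.

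AP-1 is a dimer of a Fos-family and a Jun-family protein, or of Jun-family proteins, held together by paired leucine zippers and bound to DNA through the adjoining basic regions. ATF and BATF proteins have the same kind of domain, dimerise with Jun proteins and shift the dimer's choice of DNA site. In macrophages, LPS acts on these genes and proteins through the MAP kinases, and several of the genes are known for early and brief transcription after a stimulus.

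The targeted gene Cebpb had a signal of 59.0 in stimulated and 12.7 in untreated KO cells, 5890.3 and 2284 in KI cells, and 9329 and 5492 in WT cells. Both KO signals were under the floor. Where its probe set lies relative to the altered part of the gene is not given in the sources used here. All 8 macrophage markers examined were above the floor on every array. Of 9 T and NK cell markers 6 were under it on every array, among them Cd3d, Cd3e and Cd3g, while Cd4, which macrophages can also express, was above it on all 6 arrays, Il2rb on 4 and Cd2 on 2. The summed signal of 6 B cell markers was 2732 and 6174 in stimulated and untreated KO cells, 1975 and 2098 in KI cells, and 3730.4 and 7013 in WT cells. For 5 dendritic cell and maturation markers, all above the floor on at least 1 array, it was 12690.4 and 4297 in KO, 12308 and 10218 in KI, and 6419 and 3982 in WT cells. The 8 mesothelial and fibroblast markers, of which Krt19 and Msln were under the floor on every array, summed to 1338 and 1561 in stimulated and untreated KO cells, 1625 and 1702 in KI, and 4332 and 3251 in WT cells. For 9 neutrophil markers, 3 of them (Cxcr2, Ngp and S100a9) under the floor on every array, the sums were 1010 and 1235 in KO, 688 and 1274 in KI, and 2012 and 2136 in WT cells. The lower quartile of all signals was highest on the untreated WT array, 63.2, and lay between 31.9 and 46.9 on the other arrays, which bears on weak signals.

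The sequences just upstream of 4 of the genes are shown. These genes, Batf, Junb, Fos and Jun, were chosen after their values were seen, as the 4 members with an unadjusted p under 0.05 in the comparison of stimulated with untreated cells given below. They are the 250 bases before the annotated start, from RefSeq on build GRCm38.p6, printed 5′ to 3′ on the gene's strand, at chr12:85686470-85686719 (+), chr8:84978749-84978998 (-), chr12:85473640-85473889 (+) and chr4:95052223-95052472 (-). Capitals mark every match, on either strand, to TGANTCA (the AP-1 site), TGACGTCA (the cyclic AMP response element, CRE), TGACGT (the first 6 bases of the CRE, and so contained in it), TTGCNNAA (a C/EBP site), TTCNNNGAA (the interferon-γ activated site), GGGNNTTTC (the first 9 bases of a κB site) and TATAAA.
Batf: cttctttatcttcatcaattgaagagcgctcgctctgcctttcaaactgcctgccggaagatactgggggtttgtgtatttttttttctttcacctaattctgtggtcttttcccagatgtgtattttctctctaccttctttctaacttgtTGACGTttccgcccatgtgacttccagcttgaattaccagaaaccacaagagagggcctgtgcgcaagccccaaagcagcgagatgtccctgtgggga
Junb: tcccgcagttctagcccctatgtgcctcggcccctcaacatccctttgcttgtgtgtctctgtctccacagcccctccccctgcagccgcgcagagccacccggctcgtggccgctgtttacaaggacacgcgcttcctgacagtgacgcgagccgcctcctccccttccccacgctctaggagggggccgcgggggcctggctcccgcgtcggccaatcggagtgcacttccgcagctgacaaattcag
Fos: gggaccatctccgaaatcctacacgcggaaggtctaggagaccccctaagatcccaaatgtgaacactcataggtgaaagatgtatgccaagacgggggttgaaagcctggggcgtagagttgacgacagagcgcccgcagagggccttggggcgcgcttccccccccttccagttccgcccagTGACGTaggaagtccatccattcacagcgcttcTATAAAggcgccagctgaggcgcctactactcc
Jun: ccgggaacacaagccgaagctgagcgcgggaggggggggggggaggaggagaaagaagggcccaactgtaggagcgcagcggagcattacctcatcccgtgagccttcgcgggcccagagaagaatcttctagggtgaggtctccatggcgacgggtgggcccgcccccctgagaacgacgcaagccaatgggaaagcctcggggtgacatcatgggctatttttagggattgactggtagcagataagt
Fos had TGACGT from 66 to 61 bases and TATAAA from 33 to 28 bases before its start, and Batf had TGACGT from 98 to 93 bases before its start. TGACGT occurred in 6.47% and TATAAA in 12.4% of the 32851 RefSeq promoters over the same length. Junb and Jun had no match to any of the 7 motifs in this window. TGANTCA was in 6.75%, TGACGTCA in 1.55%, TTGCNNAA in 9.56%, TTCNNNGAA in 7.02% and GGGNNTTTC in 3.72% of all promoters. The table held promoters of 8 of the 9 genes, all but Fosl1. Among the other 4, Jund had 1 TTGCNNAA match and Atf3 1 TGACGT match. A match describes letters in the window and was not tied to any measured binding.

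The first comparison asked which of the factors differed between stimulated and untreated cells. Batf and Junb rose, and no other member passed the test. The test was limma's fit of stimulation to the 6 arrays with a term for genotype, adjusted over 9344 probe sets by Benjamini-Hochberg, in which 5.03% of probe sets passed as higher and 6.01% as lower. The error starts from the variation of the response between genotypes, with 2 residual degrees of freedom, and not from that between replicate cultures. limma then draws it toward the value typical of probe sets of similar signal. The SE and p of a gene therefore do not measure its own spread alone. Of the 8 members tested 2 rose, none fell and 4 had an unadjusted p under 0.05, which 27.2% of all probe sets had. The median of the members' mean log2 changes was 0.40, and that of all probe sets -0.12. Centring each array on its median instead moved the median over all probe sets to -0.01 and left both calls in place.

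Batf encodes a small AP-1 protein without a transactivation domain, which pairs with Jun proteins and binds DNA together with interferon regulatory factors. Its signal was 837 in stimulated and 28.8 in untreated KO cells, 865 and 137 in KI cells, and 689 and 73.1 in WT cells. The 3 stimulated arrays lay close together and well above the 3 untreated ones, and the untreated KO and WT signals were under the floor. Batf was therefore at least 8.54-fold higher in stimulated KO cells, 6.31-fold higher in KI cells and at least 7.03-fold higher in WT cells. The mean log2 change over genotypes, with the floor, was 2.86 (SE 0.24, limma adjusted p = 0.00467). Batf is also active in lymphocytes. Of the 6 B cell markers, in no genotype was any higher after stimulation by a log2 change of 1 or more, and 4 were lower by that much in KO, 2 in KI and 2 in WT cells, with median changes of -1.19, 0.02 and -0.75. The part of lymphocytes in the Batf signal was not tested.

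BATF acts with IRF4 and IRF8, and both of their genes were on the array. Irf8, which directs macrophage development and interferon-γ responses, had a signal of 6806 in stimulated and 1971 in untreated KO cells, 8957 and 1464 in KI cells, and 5784 and 1574 in WT cells. It rose by 2.09 on the log2 scale (SE 0.20, limma adjusted p = 0.00636). Irf4, more typical of lymphocytes and of alternatively activated macrophages, was under the floor on all 3 stimulated arrays and at 140.4, 277 and 48.0 in untreated KO, KI and WT cells.

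Junb, a Jun-family protein that replaces c-Jun in many dimers and is a weaker activator at single AP-1 sites, was measured by a pair of probe sets. The stronger (102363_r_at) gave 4527 in stimulated and 1478 in untreated KO cells, 4429 and 1294 in KI cells, and 3689 and 1522 in WT cells. All 3 stimulated signals were above all 3 untreated ones, by 3.06-fold in KO, 3.42-fold in KI and 2.42-fold in WT cells. The mean log2 change was 1.56 (SE 0.14, limma adjusted p = 0.00613). The other probe set (102362_i_at) gave 2939 and 1021 in KO, 2817 and 604 in KI, and 2618 and 772 in WT cells, a mean change of 1.84 (SE 0.18, limma adjusted p = 0.00679). Both probe sets thus had the states apart, and the KI ratio was the largest of the genotypes in both. They are annotated to the same source sequence and read the same arrays, so they are not independent measures. The stronger carries the suffix r, which is explained below for Atf3.

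The calls for Batf and Junb rest on all 3 genotypes. Without both WT arrays their limma adjusted p was 0.191 for each gene, without both KO arrays 0.226 for Batf and 0.257 for Junb, and without both KI arrays 0.101 and 0.103. In these smaller fits the log2 changes stayed at 2.74 to 2.95 for Batf and 1.45 to 1.69 for Junb. Over all probe sets, 13 rose past the threshold without the KI arrays and 0 without the WT or the KO arrays, and none of the members or of the listed genes named here was among the 13. With the filter on low probe sets dropped, adjusted p was 0.0688 for Batf and 0.0844 for Junb. The size of the Batf change followed the floor, at 3.54 with the floor at the 20th and 1.66 at the 60th percentile, past the test in both (limma adjusted p = 0.0133 and 0.00741).

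**Figure D1:**
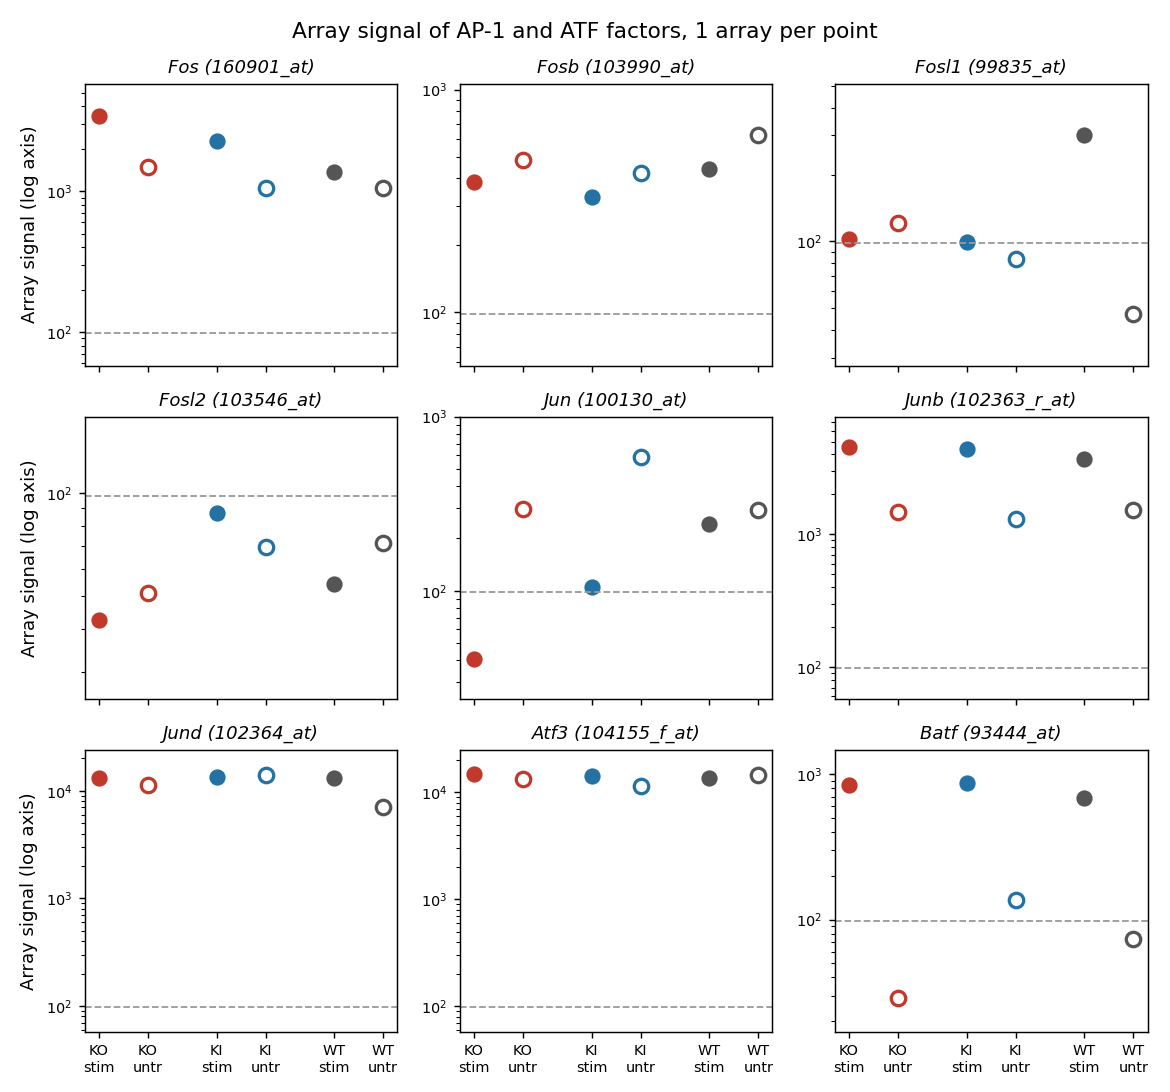
Deposited array signal (log axis, its range set for each panel) of the probe set that stands for each gene, with filled circles for stimulated and open circles for untreated KO, KI and WT cells, 1 array per point, and the floor of 98.0 as a dashed line. Batf and Junb have all filled circles above all open ones, Jun has them all below, and Fosl2 lies under the floor throughout.

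Fos, the immediate-early gene of c-Fos, had a signal of 3407 in stimulated and 1487 in untreated KO cells. It gave 2258 and 1051 in KI cells, and 1374 and 1059.9 in WT cells. Within each genotype the stimulated signal was higher, by 2.29-fold in KO, 2.15-fold in KI and 1.30-fold in WT cells, but the stimulated WT signal was below the untreated KO one. The mean log2 change of 0.89 missed the threshold (SE 0.20, limma adjusted p = 0.0559). The call was made (limma adjusted p in parentheses) when the floor was the 60th percentile (0.0458), with a pseudocount of 50 in place of the floor (0.0159) and with median centring (0.0366). A second Fos probe set (161716_at) was under the floor on every array, between 8.4 and 67.1, so it gave no ratio.

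Jun, the gene of c-Jun, had a signal of 40.7 in stimulated and 295 in untreated KO cells, 105 and 588 in KI cells, and 242.5 and 292 in WT cells. The 3 stimulated signals lay below the 3 untreated ones, with KO under the floor and WT only a little lower. Stimulated cells were at least 3.01-fold lower in KO, 5.62-fold lower in KI and 1.20-fold lower in WT. The mean log2 change of -1.45 missed the threshold (SE 0.47, limma adjusted p = 0.125), and with the pseudocount in place of the floor it was -1.40 and passed (limma adjusted p = 0.0219). A floor at the 60th percentile, a signal of 251, put all 3 stimulated signals at the floor and left -0.56.

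Counted over the members tested, the stimulated arrays lay wholly above the untreated ones for Batf and Junb and wholly below for Jun, and the states overlapped for 5. Over all probe sets, with the floor applied, 9.77% lay wholly above and 17.2% wholly below. The members were compared without the floor, and applying it leaves their counts unchanged. Members were chosen with earlier results of these data known, and no group had a replicate. These counts therefore describe the set and do not support a difference.

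Fosl1 encodes Fra-1, a Fos-family protein without the transactivation domain of c-Fos. Its signal was 103 in stimulated and 121 in untreated KO cells, 99.3 and 83.5 in KI cells, and 301 and 47.0 in WT cells. Only the stimulated WT array was far above the floor, at least 3.08-fold over untreated WT cells. The mean over genotypes was 0.47 (SE 0.39, limma adjusted p = 0.493), and without both WT arrays it was -0.11. Fosl2, the gene of Fra-2, gave 42.7 and 50.9 in KO, 87.5 and 69.5 in KI, and 54.2 and 71.2 in WT cells, all under the floor, so no ratio is given.

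Fosb had lower signals in stimulated than in untreated cells of every genotype, 386 and 484.5 in KO, 329 and 422 in KI, and 439 and 626 in WT cells. The states overlapped across genotypes, and the mean log2 change of -0.40 did not pass (SE 0.20, limma adjusted p = 0.266). Jund, the Jun-family gene known for steady expression, gave 13068 and 11253 in KO, 13265 and 14138 in KI, and 13005 and 7126 in WT cells. Its 3 stimulated signals were nearly alike and the untreated ones were not, with WT the lowest. The mean log2 change was 0.33 (SE 0.21, limma adjusted p = 0.379).

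Atf3 encodes an ATF-family repressor that limits inflammatory transcription after LPS. Its strongest probe set (104155_f_at) gave 14780.3 in stimulated and 13413 in untreated KO cells, 14341 and 11459.8 in KI cells, and 13590.3 and 14653 in WT cells. A second (104156_r_at) gave 3817 and 3363 in KO, 4435 and 3053 in KI, and 3124 and 4080.4 in WT cells. Both varied little, with stimulated signals a little higher in KO and KI and a little lower in WT cells, and mean log2 changes of 0.12 (SE 0.14, limma adjusted p = 0.613) and 0.11 (SE 0.20, limma adjusted p = 0.749). The third (161645_r_at) was between 6.4 and 24.4, under the floor on every array, so the 3 probe sets assigned to Atf3 disagree on whether it was above the floor. In the maker's naming, the suffix f marks probes shared by a sequence family and r marks sets for which design rules were relaxed. What else these probe sets detect was not tested.

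**Figure D2:**
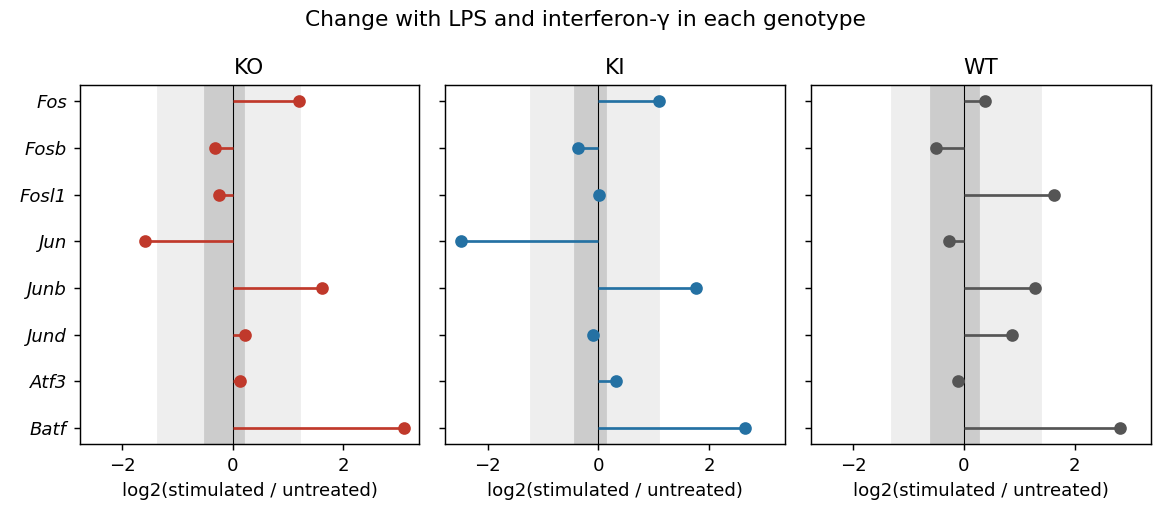
Log2 ratio of stimulated over untreated signal, with the floor applied, for 8 genes in KO, KI and WT cells, 1 pair of arrays per panel. The dark band spans the 25th to 75th and the pale band the 5th to 95th percentile of 9344 probe sets; Batf, at 3.09, 2.66 and 2.81, lies beyond the pale band in all panels, and Jun, at -1.59, -2.49 and -0.27, in KO and KI only.

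Within single genotypes, changes of at least 1 on the log2 scale were counted without a test, since 2 arrays leave no error. In KO cells Batf, Junb and Fos were higher by that much (3 of 8, against 6.54% of all probe sets) and Jun lower (1 of 8, against 9.69%). In KI cells the same 3 were higher (background 5.58%) and Jun lower (background 8.01%). In WT cells Batf, Fosl1 and Junb were higher (background 8.54%) and none was lower (background 10.1%). Median centring added Jund in WT cells, at 1.04. With the floor at the 60th percentile, Fosl1 in WT cells was at 0.26 and Jun in KO cells at -0.23, both short of that size.

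The second comparison asked whether the factors differed between genotypes. In the additive fit over both states, limma called 0 of 9344 probe sets for KO against WT, 0 for KI against KO, and 0 higher (0%) and 1 lower (0.0107%) for KI against WT, the last a probe set without a single gene symbol. At an unadjusted p under 0.05 there were 946 (10.1%), 703 (7.52%) and 1598 (17.1%) probe sets. None of the members was called in any of the 3 contrasts. The targeted gene Cebpb was not called either. Its KO minus WT mean, with both KO signals at the floor, was -6.19 (SE 0.34, limma adjusted p = 0.0774). The KI minus KO mean of Cebpb was 5.23 (SE 0.34, limma adjusted p = 0.0900). The absence of a call therefore does not show that a member was alike between genotypes. By unadjusted p, Fos in KO against WT was the 1 member under 0.05 in any of the 3 contrasts. Its KO minus WT mean was 0.90 (SE 0.25, limma adjusted p = 0.432). Its KI minus WT mean was 0.35 (SE 0.25, limma adjusted p = 0.477) and its KI minus KO mean -0.55 (SE 0.25, limma adjusted p = 0.688). For Jun the KO minus WT mean was -0.65 (SE 0.57, limma adjusted p = 0.657). The lowest adjusted p of the members came from KI minus WT, where the mean was -0.49 for Fosb (SE 0.24, limma adjusted p = 0.368) and 0.51 for Jund (SE 0.26, limma adjusted p = 0.386).

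By size in stimulated cells, without a test, Fos was 2.48-fold higher in KO than in WT, the only member higher by 1 or more as a log2 difference (background 2.57%). Fosl1 was 2.94-fold lower and Jun at least 2.47-fold lower (2 of 8, background 3.24%). In stimulated KI cells Fosl1 was 3.04-fold and Jun 2.32-fold lower than in WT (2 of 8, background 4.92%), and no member was higher by that much (background 1.89%). Fos in KI was 1.64-fold above WT. For Fosl1 and Jun the KO and KI signals lay near the floor, and raising the floor to the 60th percentile shrank the differences to -0.26 for Fosl1 and to 0 for Jun. The stimulated KI minus WT difference of Jun was also short of 1 with the pseudocount (-0.92), quantile normalization (-0.90) and median centring (-0.89). Median centring put that of Fos past 1, at 1.04. The mesothelial and fibroblast and the neutrophil markers given above had higher summed signals in stimulated WT cells than in stimulated KO or KI cells. Of the 6 mesothelial and fibroblast markers tested, 2 (Dcn and Col3a1) had a log2 difference from WT of -1 or lower in KO, and the same 2 in KI, and none was higher by that much. The dendritic cell and maturation markers had a higher sum in stimulated KO and KI than in stimulated WT cells, but single markers differed, with 3 of 5 higher and none lower by at least 1 in KO, and 1 higher (Cd83) and 1 lower (Flt3) in KI. The part of these cell types in the Fos, Fosl1 and Jun differences was not tested. A stimulation time of 12 h is labelled for KO and KI but not for WT cells, and the part of time in these differences was not tested either.

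In untreated cells, with the floor applied, no KO signal of a member lay 1 or more from WT on the log2 scale (background 6.3% higher and 4.3% lower). The KO signal of Jund was 1.58-fold and that of Fos 1.40-fold above WT. In untreated KI cells Jun was 2.01-fold above WT, past that size (1 of 8, background 8.12%), and Jund was 1.98-fold above, just short of it, while none was lower by that much (background 10%). Of the 6 B cell markers, 5 were lower in untreated KI than WT cells by at least 1, and 0 higher (median -1.79). For the 5 dendritic cell and maturation markers 1 was higher by that much and 0 lower, with sums of 10218 and 3982. The part of cell types in the Jun and Jund differences was not tested. Fosb was 1.29-fold lower in KO and 1.48-fold lower in KI than in WT, and in both states its signal was highest in WT, lower in KO and lowest in KI, although with median centring the untreated KI value was 0.03 above KO on the log2 scale. Batf in untreated KO and WT cells was under the floor, so their order was not resolved. The untreated WT signal of Fosl1 was also under the floor, so its KO minus WT difference was at least 0.31. With the floor at the 20th percentile these KO minus WT differences were 1.37 for Fosl1 and -1.22 for Batf.

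**Figure D3:**
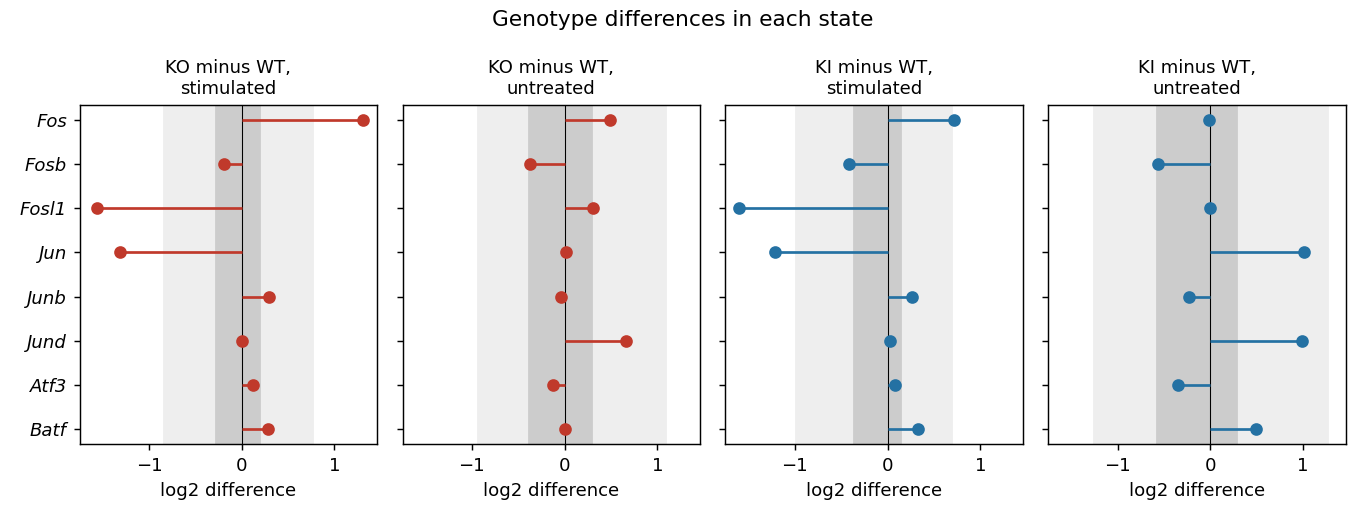
Log2 difference between genotypes, with the floor applied, for 8 genes: KO minus WT and KI minus WT, each in stimulated and in untreated cells, 1 array against 1 array. Bands are the 25th to 75th and the 5th to 95th percentile of 9344 probe sets; in stimulated cells Fosl1 and Jun lie to the left in both genotypes, at -1.55 and -1.31 in KO and -1.60 and -1.21 in KI, and Fos to the right at 1.31 and 0.72.

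Expressed as a difference in the change with stimulation, the same genes stood out, again without a test. The change was lower in KO than in WT by at least 1 for Fosl1 (-1.86) and Jun (-1.32), 2 of 8 against a background of 7.18%, and lower in KI than in WT for Fosl1 (-1.60) and Jun (-2.22), against 8.87%. The KI value of Jun includes an untreated KI signal of 588, against 292 in untreated WT cells. The change of Fos was higher by 0.82 in KO and 0.73 in KI, under that size, and no member reached it (background 5.36% for KO and 6.77% for KI). The change of Jund was lower by 0.65 in KO and 0.96 in KI, with its untreated WT signal the lowest of the 6. The change of Junb was higher than in WT by 0.34 in KO and 0.50 in KI. For Batf, both the KO and the WT change are bounds, so their difference has no measured size. With the floor at the 20th percentile the Batf changes were 4.74 in KO, 2.66 in KI and 3.24 in WT cells. The untreated WT signal of Fosl1 and the stimulated KO signal of Jun were also under the floor, so their differences above are sizes at that floor.

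Genes with the most similar course over the 6 arrays were sought for the 3 members with the widest range, as a description over 6 points that share the stimulation. The correlations used log2 signals with the floor applied. Signals under it, such as Batf in untreated KO and WT cells and Jun in stimulated KO cells, were set to the floor, which hides their differences. Batf was closest to Irgm1, an interferon-inducible GTPase, Serpinb9, an inhibitor of granzyme B, and Ifi35, an interferon-induced protein, each with Pearson's r of 0.999. Junb was closest to Slfn4 (0.998), Usp18 (0.998), which removes ISG15 from proteins, and Ccne1, cyclin E1 (0.996). Jun was closest to Tm7sf3 (0.993), Galk2 (0.989) and Cyp4v3 (0.982). Of 1833 candidate genes, 264 had r over 0.9 with Batf, 241 with Junb and 42 with Jun.

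Tm7sf3 showed the course of Jun most plainly, with 39.5 in stimulated and 335 in untreated KO cells, 101 and 544 in KI cells, and 249 and 269 in WT cells. Irgm1 had 2281 and 286 in KO, 2457 and 352 in KI, and 1875 and 260.0 in WT cells, the same close grouping of stimulated arrays as Batf.

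Other leucine-zipper genes that can pair with these factors showed no call. Of 28 listed, 20 were on the array and 18 tested, and the median change was -0.01. Of these 0 rose (background 5.03%) and 0 fell (background 6.01%). Mafk, a small Maf protein, had 697 in stimulated and 311 in untreated KO cells, 575 and 395 in KI, and 631 and 96.2 in WT cells, with untreated WT under the floor (mean log2 change 1.46, SE 0.45, limma adjusted p = 0.114). Bach1, a haem-sensing repressor that pairs with small Maf proteins, had 683 and 1328 in KO, 1670.0 and 3169 in KI, and 622 and 454 in WT cells. Its KI signals were thus the highest in both states, 1.42 above WT on the log2 scale in stimulated and 2.80 in untreated cells, without a test.

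Nfe2l1, a regulator of proteasome genes, was highest in KI and lowest in WT in untreated cells, with 1735 in stimulated and 1312 in untreated KO cells, 2178.5 and 1779 in KI, and 1718 and 706.5 in WT cells. Ddit3, the stress factor CHOP, was 233 in stimulated and 269.5 in untreated KO cells, 666.5 and 477 in KI, and 274 and 362.5 in WT cells. Neither changed with stimulation past the test.

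In the MAP kinase cascade that acts on AP-1, 18 of 25 listed genes were tested, with a median of -0.19. Of these 1 rose (background 5.03%) and 0 fell (background 6.01%). Map2k1, the ERK kinase MEK1, had 2905 in stimulated and 1071 in untreated KO cells, 2138 and 956 in KI, and 2820.3 and 1067 in WT cells, and rose by 1.33 (SE 0.13, limma adjusted p = 0.00712). Map3k8, which links LPS receptors to MEK1, had 372 and 622 in KO, 415 and 149.9 in KI, and 285 and 376 in WT cells. Map3k1 was at 793 in untreated KO, 1234 in untreated KI and 427 in untreated WT cells, while the stimulated signals lay between 468 and 537.5. Map3k3 was higher in KO than in WT in both states, 598 and 857 in stimulated and untreated KO against 302 and 365 in WT. In KI cells it was 417 and 563, also above WT.

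Of 16 genes of serum response and immediate-early induction, 13 were tested, with a median of -0.09. Among them 2 rose (background 5.03%) and 1 fell (background 6.01%). Ier3, a survival gene, rose by 2.82 (SE 0.29, limma adjusted p = 0.00853), with 4809.7 and 875 in KO, 4228 and 331 in KI, and 6648 and 1330.1 in WT cells. Klf6, a zinc-finger factor, rose by 1.08 (SE 0.13, limma adjusted p = 0.0113), and Egr2, an immediate-early factor of macrophages, fell by 1.03 on the log2 scale (SE 0.21, limma adjusted p = 0.0407). Gadd45b, Ier2 and Klf4 did not pass, at means of 0.79, -0.63 and -0.09. The genotypes differed in the first 2, without a test. Gadd45b changed by 0.80 in KO, 2.21 in KI and -0.65 in WT cells, and Ier2 by -0.74, 0.04 and -1.19. Klf4 was 658 and 695 in stimulated and untreated KO cells and 243 and 229 in WT cells, higher in KO by 1.43 and 1.60 on the log2 scale. In KI cells it was 374 and 453, above WT by 0.62 and 0.98.

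Of 20 genes listed from the literature as AP-1 targets, many of them also driven by other factors, 18 were tested, with a median of 0.36. Among those tested 6 rose (background 5.03%) and 1 fell (background 6.01%). Ccl2, the monocyte chemokine, rose by 3.42, Timp1, an inhibitor of matrix proteases, by 2.92, Ccnd1, cyclin D1, by 1.82, Mmp14 by 1.69, Mt2, a metallothionein, by 1.54 and Plaur, the urokinase receptor, by 0.59, with limma adjusted p from 0.00234 to 0.0452. Mmp12, the macrophage elastase, fell by 1.18 (SE 0.17, limma adjusted p = 0.0193). Ccnd1 was high in KO and KI, with 1541 in stimulated and 210.1 in untreated KO cells, 1698 and 764 in KI, and 362 and 135 in WT cells. Mmp9 was at 1922 in untreated KI cells against 138 in untreated KO and 95.3 in untreated WT cells, and its mean change of -0.07 did not pass (SE 0.65, limma adjusted p = 0.954).

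**Figure D4:**
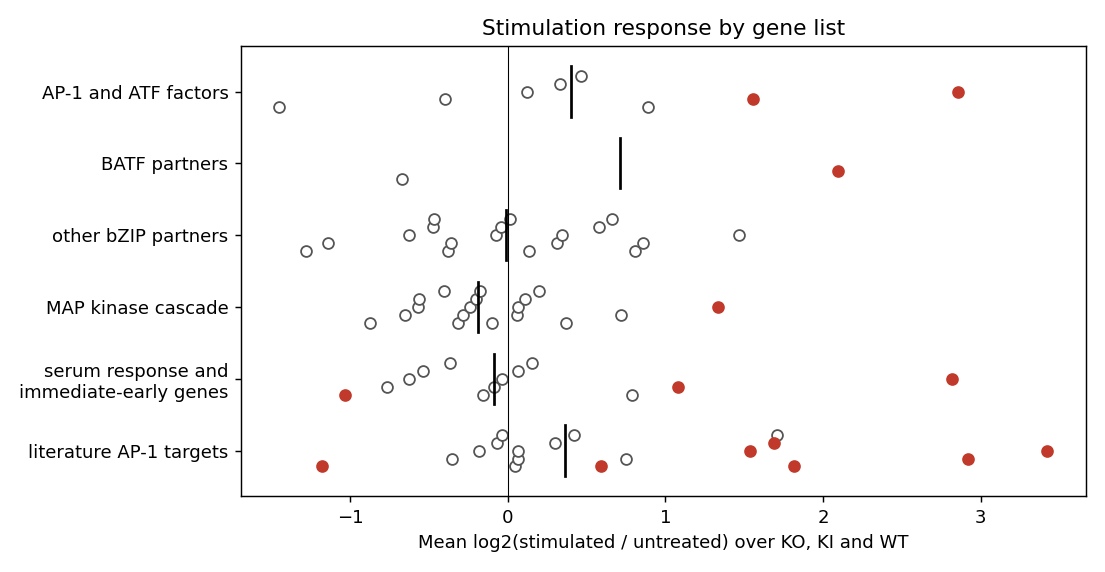
Mean log2 ratio of stimulated over untreated signal over KO, KI and WT cells for each gene of 6 lists, 1 point per gene, spread vertically only for legibility. Filled points passed limma's test with all 6 arrays and open points did not, and the bar is the list's median. The AP-1 and ATF factors have a median of 0.40 with 2 of 8 filled. The other leucine-zipper genes have a median of -0.01 with none of 18 filled. Over all probe sets 5.03% passed as higher and 6.01% as lower.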

How the data were processed

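The authors deposited a table of linear signal intensity for 12488 probe sets on 6 single-colour Affymetrix arrays. The submitters' processing notes name MAS5. The sources used here give no version, scaling target or detection calls. The trimmed means of the arrays lay between 500.3 and 500.4, so the signals were already on 1 scale. Groups came from sample titles. Signals were scaled to a common trimmed mean (2% at each end), set to a floor at the 40th percentile (97.99) and converted to log2. Of 12422 probe sets that are not controls, 9344 passed the floor on 1 or more arrays and were tested, with limma 3.58.1 in R 4.3.3 (additive fit of genotype and stimulation, eBayes with trend, Benjamini-Hochberg at 0.05). Where 1 of a pair of signals was under the floor, the fold is a bound, written "at least". Gene names came from the platform annotation, 1 symbol per probe set, and the probe set of highest mean log2 signal stands for its gene. In lists, genes past the test are named, and the 4 largest by mean change or by KO or KI difference from WT among genes whose highest array reached the 75th percentile of signals. On simulated data for the stimulation test over 9344 probe sets, with every change equal in all genotypes, 55.0% of changes of 1 and 99.0% of changes of 2 on the log2 scale were recovered. Members and lists were chosen with earlier results of these data known. Alternatives were other floors, a pseudocount of 50, quantile normalization, median centring, no filter, no trend, no genotype term and leaving out each genotype.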

Additional observations from a re-analysis of the deposited data

Results flagged for a closer look

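Fosl1 is given here because its signal differed between states in opposite directions in a pair of genotypes. The log2 change with stimulation was -0.24 in KO and 1.62 in WT cells, a difference of -1.86, from signals of 103 in stimulated and 121 in untreated KO cells and of 301 and 47.0 in WT cells. The difference was not tested, since each genotype has 1 array per state. The KO signals lay just above the floor of 98.0 and the untreated WT signal under it.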

How the results depend on the processing

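The main fit pairs the arrays by genotype, and without that term the same number of members, 2, passed as higher. In limma's stimulation fit, 470 probe sets passed as higher and 562 as lower. These counts became 49 and 20 with no filter, the lower count 969 with a pseudocount of 50 and 372 with median centring, and leaving out 1 genotype left 0 to 13 higher and 0 lower. Of the members, 2 passed as higher, against 0 with no filter and 0 without any 1 genotype, where 1 residual degree of freedom remains; 1 (Jun) passed as lower with the pseudocount. With 1 genotype left out, the mean change of Fosl1 ran from -0.11 (without both WT arrays) to 0.82 (without both KO arrays); over all alternatives its highest value was 0.90, with the floor at the 20th percentile, and the cause was not tested. Every other member kept the sign of its mean change in all alternatives run. For KO against WT, 0 calls in either direction became 1 lower with the floor at the 20th percentile, 1 lower with quantile normalization, and 2 higher and 5 lower with the pseudocount. For KI against KO the floor at the 20th percentile gave 1 higher and 1 lower, and the pseudocount 6 and 8. For KI against WT, 0 higher and 1 lower became 28 and 45 with the pseudocount, 2 and 2 with no filter, and 0 lower with the floor at the 60th percentile, with quantile normalization, without the eBayes trend and without both KO arrays. No member was called between genotypes in any of these. Why the pseudocount gave more calls was not tested. Fosl1, Jun and untreated Batf had signals near or under the floor, so their ratios depend on it: with the floor at the 20th percentile the untreated KO minus WT difference was 1.37 for Fosl1 and -1.22 for Batf.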
